A study of Mus musculus with 36 samples.

Results

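AT-3 is a mouse breast cancer line derived from an MMTV-PyMT mammary tumour, and BMS204352 is a small molecule that opens BK and KCNQ potassium channels. The comparison described here is that of AT-3 cells given 10 µM BMS204352 for 24 h with AT-3 cells given DMSO, the vehicle, for 24 h. Each group held 3 RNA sequencing libraries, chosen by their labels, so that 6 of the 36 libraries of the study were compared. All of these cells were seeded and cultured for 24 h before treatment. They carried no genetic change that the labels name and were all of 1 established line. The other 12 AT-3 libraries held cells given 40 mM KCl, the BK opener NS11021 at 10 µM, or KCl with either compound. They served here to estimate the spread between replicates, and also entered the filter for tested genes and the scaling of counts. The labels do not say whether replicates came from separate cultures, so p-values measure the spread between these libraries, which may be technical. The study concerns MRTFA and SRF, which drive actin and adhesion genes, and the calcium and potassium levels of cancer cells.

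BK channels, whose pore is encoded by Kcnma1, open upon depolarization and a rise in intracellular calcium. KCNQ channels open near the resting potential and steady it. Opening either lets potassium leave the cell and draws the membrane potential towards that of potassium. In epithelial and tumour cells the membrane potential sets the driving force for calcium entry, and calcium in turn feeds kinase cascades that act on transcription.

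Library totals of the 6 libraries were 42.4 to 52.6 M counts. The labelled line was checked against epithelial markers. Epcam stood at 114 to 155 CPM (counts per M counts of the library), Cdh1 at 429.8 to 504.5 CPM and Krt14 at 1387 to 2068 CPM. Other epithelial markers were low: Krt8 was at 0.0869 to 1.56 CPM and Cldn3 at 0.261 to 1.16 CPM. Krt19, Cldn4 and Elf3 stood under 1 CPM in every library. Mesenchymal markers were also present, with Vim at 1578 to 3254 CPM and Fn1 at 3366 to 9169 CPM, whereas Tgfbi stood under 1 CPM. BMS204352 replicate 3 stood apart. On the first principal component of the 6 libraries, which held 54.9% of the variance, it lay at 43.8, the other 2 BMS204352 libraries at 0.917 and 4.29, and the 3 DMSO libraries between −16.8 and −16.0. Of 10585 genes whose mean log2 CPM reached 2, it was at least 2-fold above both other BMS204352 libraries for 105 and at least 2-fold below both for 34, while each of the other 5 libraries gave 0 and 0 within its own group. Its total (48.1 M), its mitochondrial share (0.555%, against 0.520 to 0.608% in the other 5) and its ribosomal protein share (5.83%, against 4.91 to 5.52%) lay in or near the range of the rest. Results are therefore given with all libraries and without this one.

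BMS204352 was followed by higher RNA of immediate early genes, of targets of ERK signalling, of the amino acid stress response led by the factor ATF4, and of the calcium-activated potassium channel gene Kcnn4. Genes with lower RNA both with and without replicate 3 included Adamts5, Sema3d, Rasgrp1, Gfra2 and Foxd1. Of 36 targets of MRTFA and SRF in the list used, which held none of the immediate early genes that rose, none rose and 3 fell. With all libraries, edgeR's quasi-likelihood test with Benjamini-Hochberg adjustment over 14772 tested genes called 779 genes at an adjusted p below 0.05 (5.27%), of which 484 rose (3.28%) and 295 fell (2%). Changes reached 2-fold for 184 of them. Without BMS204352 replicate 3, 220 of 15118 genes passed (1.46%), 136 higher (0.9%) and 84 lower (0.556%), and 210 genes passed in both fits in the same direction. Fold changes below are on the log2 scale with their standard errors (SE), "rose" and "fell" refer to the test with all libraries, and a call lost without BMS204352 replicate 3 is named as such. The largest rises and falls named below were chosen among called genes whose groups did not overlap. For them the lack of overlap was set by the choice and adds no support.

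The count of called genes changed with single libraries. Leaving out DMSO replicate 1, 2 or 3 gave 285, 337 or 146 called genes, leaving out BMS204352 replicate 1 gave 1743 and leaving out replicate 2 gave 1036. Fitting only the 6 libraries compared, with no other AT-3 library in the spread, left 10 genes past the threshold: Aoc1, Tns4, Egr1, Atp6v0a4, Aqp5, Aspa and Etv5 were higher, and Foxd1, St5 and Fam43a were lower. In that fit 1979 of 13840 tested genes had an unadjusted p under 0.05. Aoc1, which encodes a diamine oxidase, was at 0.0471, 0.0456 and 0.038 CPM with DMSO and 0.955, 1.26 and 1.62 CPM with BMS204352, so its controls were near 0. A core of 121 genes, 69 higher and 52 lower, passed with all libraries and in each of the 6 fits that left out 1 compared library.

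**Figure D1:**
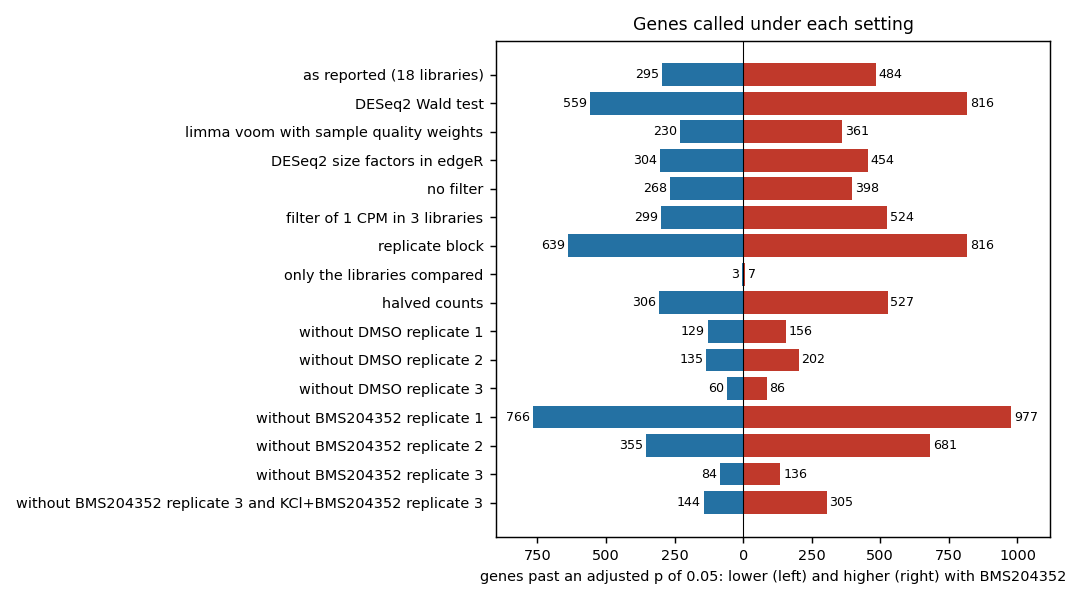
Number of genes past an adjusted p of 0.05 with BMS204352 against DMSO in AT-3 (horizontal axis, higher to the right and lower to the left) under each setting (vertical axis). The count runs from 10 with only the libraries compared to 1743 without BMS204352 replicate 1.

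The direction in replicate 3 was mostly that of the other BMS204352 libraries, with a larger size. Of the 136 genes higher without it, BMS204352 replicate 3 lay above both other BMS204352 libraries for 110, between them for 12 and below both for 14. Of the 84 lower genes it lay below both for 62, between for 8 and above both for 14. Over all 15118 tested genes it lay above both for 35.8% and below both for 41.7%.

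Immediate early genes are transcribed within minutes of a stimulus, with no need of new protein, and many encode transcription factors. Of the 26 tested, 14 rose and none fell, against 3.28% of all tested genes that rose, and their median log2 fold change was 0.88 against −0.0017 over all tested genes. Without BMS204352 replicate 3, 5 of 26 passed, all higher, against 0.9% of all tested genes, with a median of 0.45. The count was 6, 6 or 4 without DMSO replicate 1, 2 or 3, and 1 when only the 6 libraries were fitted. Calls over all genes in those fits were 285, 337, 146 and 10. The members that rose encode the AP-1 subunits Fos, Fosb, Fosl1, Junb and Jund, the zinc finger factors Egr1 to Egr3, Klf4 and Klf6, the orphan nuclear receptor Nr4a1, and Ier2, Ier3 and Btg2. Exons of Jund (52.6%) and Fosl1 (57.2%) overlap those of other annotated genes, so their counts are uncertain. The 5 that passed in both fits were Junb, Egr2, Ier2, Ier3 and Klf4.

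Promoter sequence is shown for Fos, Fosb, Nr4a1 and Areg, 4 genes among those that rose most, chosen for holding the motif, since the cAMP response element bound by the calcium- and cAMP-responsive factor CREB is a known input of such genes. Each is the 250 bases before a RefSeq start, 5′ to 3′ on the strand of the gene, on GRCm38.p6. The window of Nr4a1 precedes a start that lies inside the gene span given below. Capitals mark the core of that element, TGACG, on either strand. The full element, TGACGTCA, holds the core on both strands and lies whole in the Areg window.
Fos, chr12:85473640-85473889, plus strand: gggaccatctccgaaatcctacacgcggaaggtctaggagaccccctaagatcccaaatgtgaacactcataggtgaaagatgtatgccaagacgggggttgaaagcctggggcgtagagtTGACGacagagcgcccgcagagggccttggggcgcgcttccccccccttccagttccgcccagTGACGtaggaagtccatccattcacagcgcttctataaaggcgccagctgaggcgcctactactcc
Fosb, chr7:19310046-19310295, minus strand: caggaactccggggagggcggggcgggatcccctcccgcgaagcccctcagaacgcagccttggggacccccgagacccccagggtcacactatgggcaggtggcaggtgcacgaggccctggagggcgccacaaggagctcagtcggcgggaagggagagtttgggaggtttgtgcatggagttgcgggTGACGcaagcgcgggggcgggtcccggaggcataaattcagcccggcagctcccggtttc
Nr4a1, chr15:101266596-101266845, plus strand: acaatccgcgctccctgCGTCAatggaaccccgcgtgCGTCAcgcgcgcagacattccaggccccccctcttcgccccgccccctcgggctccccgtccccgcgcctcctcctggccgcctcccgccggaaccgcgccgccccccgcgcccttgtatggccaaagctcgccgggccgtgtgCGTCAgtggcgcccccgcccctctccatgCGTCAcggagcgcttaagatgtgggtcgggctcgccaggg
Areg, chr5:91139349-91139598, plus strand: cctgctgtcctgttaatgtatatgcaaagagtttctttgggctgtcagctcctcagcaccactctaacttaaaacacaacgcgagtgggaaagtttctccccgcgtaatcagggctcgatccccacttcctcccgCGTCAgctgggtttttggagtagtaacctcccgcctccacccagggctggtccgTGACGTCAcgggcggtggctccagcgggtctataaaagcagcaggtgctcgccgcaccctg
The windows hold 2, 1, 4 and 3 cores. Of the 24 starts found for 20 immediate early genes, 14 hold at least 1 (58.3%), against 17.8% of 32851 starts of all genes. The full element lies in 8.33% of the immediate early starts and in 1.55% of all. The window of Ptgs2, another large rise, does not hold the core. Of 12 motifs searched on both strands, most others were also more frequent in the immediate early starts than in all starts. Among them were the antioxidant response element TGACNNNGC (29.2% against 10.2%) and the E-box CACGTG (20.8% against 6.02%). The hypoxia response core ACGTG, which the E-box contains (33.3% against 16.6%), was another. So were the metal response core TGCNCNC (62.5% against 44.4%) and the xenobiotic response core GCGTG (41.7% against 28.2%). Only the AP-1 site and the sterol regulatory element were not. No binding site of SRF was among the 12 motifs, so its share was not counted. These shares cover all genes of the list with a start found, called or not. The motif shown was chosen after the rises were seen, and a match of letters says nothing of binding.

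Fosb (chr7:19302696-19310051, GRCm38) was at 4.34, 5.57 and 3.92 CPM with DMSO and 18.98, 21.1 and 77.8 CPM with BMS204352, replicates 1 to 3 in order here and below. The groups did not overlap, and replicate 3 lay far above the other BMS204352 libraries. Its log2 fold change was 3.12 ± 0.66, adjusted p = 0.0216, and 2.13 ± 0.54, adjusted p = 0.0973 without that library, so the call was lost. Fos (chr12:85473890-85477273), the best known AP-1 subunit, was at 4.57, 6.16 and 5.06 CPM with DMSO and 14.5, 20.9 and 65.8 CPM with BMS204352, the same pattern (2.699 ± 0.58, adjusted p = 0.0227; 1.75 ± 0.45, adjusted p = 0.0958 without replicate 3). Nr4a1 (chr15:101254269-101274795) was at 48.7, 51.8 and 36.7 CPM with DMSO and 101, 96.96 and 289 CPM with BMS204352. All 3 BMS204352 libraries were above all DMSO libraries, with replicates 1 and 2 near each other (1.85 ± 0.43, adjusted p = 0.0323; 1.12 ± 0.32, adjusted p = 0.145 without replicate 3).

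Egr2 rose with less dependence on 1 library. It was at 5.33, 4.38 and 3.77 CPM with DMSO and 9.81, 10.9 and 15.7 CPM with BMS204352, with no overlap, and its log2 fold change was 1.45 ± 0.23, adjusted p = 0.00179 and 1.22 ± 0.22, adjusted p = 0.00357 without replicate 3. Ier2, a nuclear factor of the early response, was at 33.7, 33.8 and 31.4 CPM with DMSO and 46.2, 53.3 and 59.4 CPM with BMS204352. Its 3 BMS204352 libraries lay close together and above all DMSO libraries (0.70 ± 0.09, adjusted p = 0.000249; 0.60 ± 0.08, adjusted p = 0.000264 without replicate 3). Egr1, the factor most used as a marker of ERK activity, was at 82.9, 88.1 and 77.4 CPM with DMSO and 137, 166 and 195 CPM with BMS204352, and 1.01 ± 0.18, adjusted p = 0.00891; without replicate 3 it was 0.87 ± 0.19, adjusted p = 0.0525, just short of the threshold. Not all members moved: Myc was at 153, 125 and 152 CPM with DMSO and 154, 142 and 154 CPM with BMS204352, with overlapping groups (0.08 ± 0.10, adjusted p = 0.714).

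**Figure D2:**
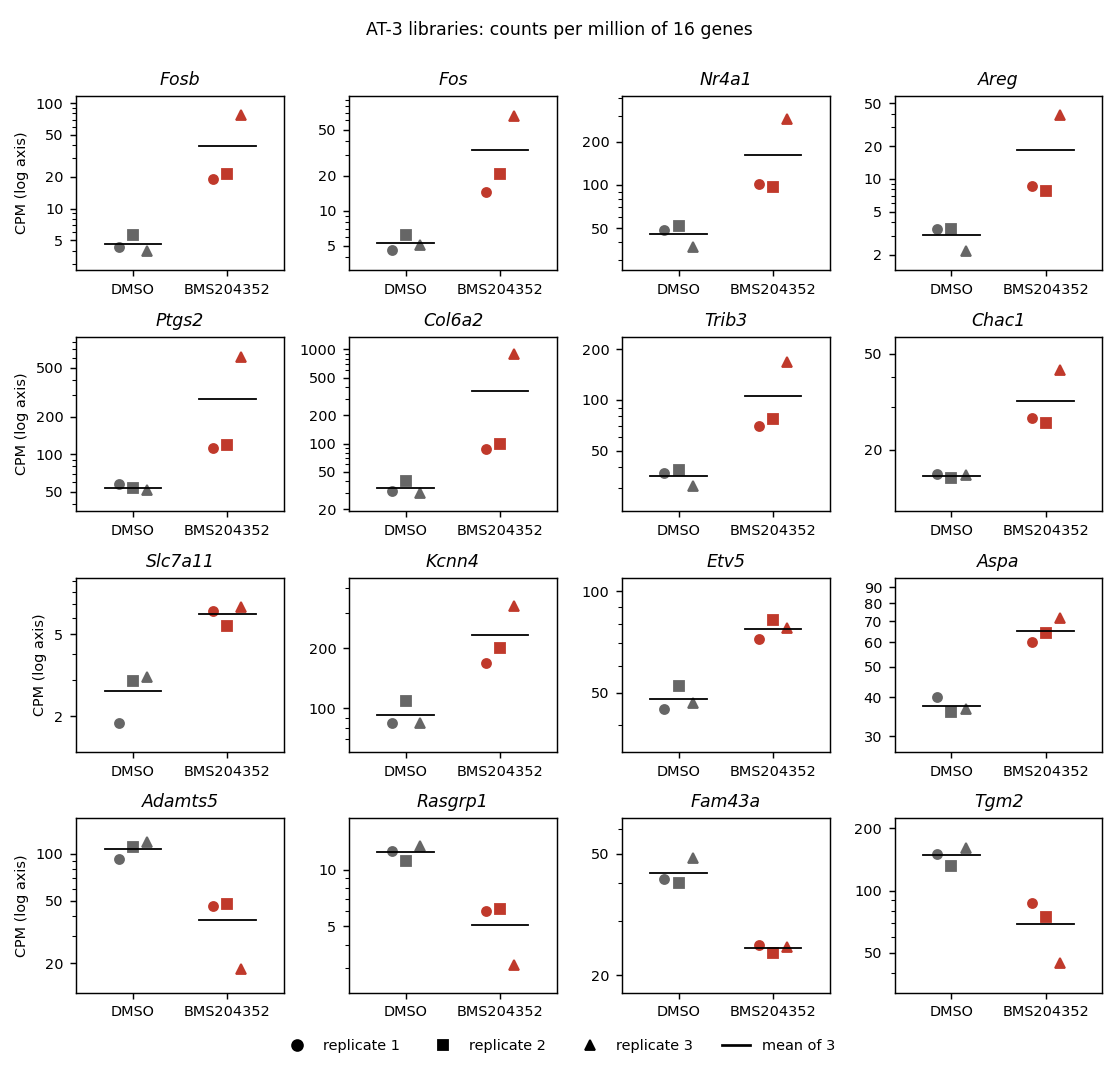
CPM (vertical axes, log scale) of 16 genes in the 3 DMSO and 3 BMS204352 libraries, with each replicate as a symbol and the mean of 3 as a line. Replicate 3 of BMS204352 lies far above its companions for Fosb, Fos, Areg, Ptgs2 and Col6a2, and beside them for Slc7a11, Etv5 and Fam43a.

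ERK signalling switches on its own brakes and the ETS factors that carry it. The list used for them also held the EGF receptor ligand genes Areg and Ereg. Of its 15 tested genes, 8 rose and none fell, against 3.28% of all tested genes that rose. Areg and Ereg were among the 8, and the median log2 fold change of the 15 was 0.77. Without BMS204352 replicate 3, 5 passed, Areg among them, against 0.9% of all tested genes that were higher, with a median of 0.51. The count was 5, 4 or 2 without DMSO replicate 1, 2 or 3, and 1 when only the 6 libraries were fitted. Calls over all genes in those fits were 285, 337, 146 and 10. Etv5, an ETS factor, was at 44.7, 52.5 and 46.5 CPM with DMSO and 71.9, 81.95 and 77.9 CPM with BMS204352. The groups were apart and replicate 3 lay between the other 2 BMS204352 libraries (0.70 ± 0.09, adjusted p = 0.000249; 0.69 ± 0.09, adjusted p = 0.000264 without replicate 3). Etv5, Aspa and the fall of Fam43a were the 3 calls found under every setting tried. Etv4, its close relative, was at 55.1, 54.5 and 45.3 CPM with DMSO and 68.8, 77.5 and 84.7 CPM with BMS204352, again with no overlap (0.59 ± 0.08, adjusted p = 0.000578; 0.51 ± 0.08, adjusted p = 0.000675 without replicate 3).

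The brakes of the pathway rose with the ETS factors. Dusp6, the phosphatase that removes phosphate from ERK, was at 38.5, 37.5 and 33.5 CPM with DMSO and 53.96, 65.9 and 91.1 CPM with BMS204352, and all treated libraries were above all controls (0.96 ± 0.18, adjusted p = 0.00898; 0.72 ± 0.14, adjusted p = 0.0208 without replicate 3). Spry4, a Sprouty inhibitor of receptor signalling, was at 10.4, 11.8 and 9.85 CPM with DMSO and 13.8, 17.2 and 22.8 CPM with BMS204352 (0.77 ± 0.15, adjusted p = 0.00645; 0.55 ± 0.13, adjusted p = 0.0366 without replicate 3). Spry1 and Spry2 passed with all libraries but not without replicate 3, while the Spred genes Spred1, Spred2 and Spred3 did not pass in either fit.

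Ligands moved in both directions. Areg (chr5:91139599-91148432), which encodes the EGF receptor ligand amphiregulin, was at 3.46, 3.47 and 2.15 CPM with DMSO and 8.69, 7.75 and 39.1 CPM with BMS204352. Replicate 3 lay far above replicates 1 and 2, which in turn lay above all controls (2.64 ± 0.57, adjusted p = 0.0216; 1.45 ± 0.29, adjusted p = 0.0121 without replicate 3). Tgfa, another ligand of that receptor, was at 17.2, 19.8 and 21.3 CPM with DMSO and 27.9, 28.3 and 35.5 CPM with BMS204352 (0.66 ± 0.13, adjusted p = 0.00641), and the cytokine gene Lif was at 88.3, 73.6 and 76.4 CPM with DMSO and 109, 104 and 123 CPM with BMS204352 (0.51 ± 0.08, adjusted p = 0.00167). Both kept their calls without replicate 3, with no overlap between groups. A list of 24 tested interleukin and growth factor ligand genes does not hold Areg. In it 3 rose (Lif, Tgfa and Vegfa) and 3 fell (Vegfc, Igf2 and Pdgfb), against 3.28% and 2% of all tested genes. Without BMS204352 replicate 3, 2 were higher (Tgfa and Lif) and 2 lower (Vegfc and Igf2), against 0.9% and 0.556% of all tested genes. Vegfc, a lymphatic growth factor, was at 42.5, 37.5 and 43.04 CPM with DMSO and 30.6, 26.4 and 24.9 CPM with BMS204352, lower in every treated library (−0.57 ± 0.09, adjusted p = 0.00155; −0.52 ± 0.10, adjusted p = 0.00404 without replicate 3). Igf2, the insulin-like growth factor, was at 5.23, 4.38 and 6.28 CPM with DMSO and 2.02, 1.83 and 0.457 CPM with BMS204352 and was lowest in replicate 3 (−1.88 ± 0.41, adjusted p = 0.017; −1.46 ± 0.32, adjusted p = 0.0195 without replicate 3).

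ATF4 is the factor that cells make when amino acids run short or protein folding is disturbed, and its targets supply transporters, synthesis enzymes and aminoacyl-tRNA synthetases. Of 41 such genes tested, 27 rose and none fell, against 3.28% of all tested genes that rose, and the median log2 fold change was 0.56. Without BMS204352 replicate 3, 17 of 41 passed, all higher, against 0.9% of all tested genes, with a median of 0.35. The median of the members relative to the DMSO mean, on the log2(CPM + 0.5) scale, was 0.32 and 0.37 in BMS204352 replicates 1 and 2 and 0.76 in replicate 3, and lay between −0.04 and 0.05 in the DMSO libraries. The count of members passing fell to 7 without DMSO replicate 3 and to 13 without DMSO replicate 1, and none passed when only the 6 libraries were fitted. Calls over all genes in those fits were 146, 285 and 10. The 6 that passed in all 7 fits with all or all but 1 of the libraries were Chac1, Aldh18a1, Pck2, Slc7a5, Nars and Sars.

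Upstream sequence is shown for 3 genes of this group, with the amino acid response element that ATF4 binds with C/EBP partners in capitals (TGATGNAAN, on either strand).
Chac1, chr2:119350992-119351241, plus strand: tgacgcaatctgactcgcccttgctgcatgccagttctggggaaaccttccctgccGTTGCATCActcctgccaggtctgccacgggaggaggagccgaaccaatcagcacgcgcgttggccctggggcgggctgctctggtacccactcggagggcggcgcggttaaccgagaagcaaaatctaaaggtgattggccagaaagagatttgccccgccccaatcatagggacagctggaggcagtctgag
Slc7a11, chr3:50443614-50443863, minus strand: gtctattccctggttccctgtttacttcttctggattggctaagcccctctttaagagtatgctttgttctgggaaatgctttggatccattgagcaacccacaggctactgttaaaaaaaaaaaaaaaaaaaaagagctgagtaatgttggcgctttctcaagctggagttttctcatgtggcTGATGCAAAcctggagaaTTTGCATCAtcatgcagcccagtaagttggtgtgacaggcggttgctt
Asns, chr6:7693210-7693459, minus strand: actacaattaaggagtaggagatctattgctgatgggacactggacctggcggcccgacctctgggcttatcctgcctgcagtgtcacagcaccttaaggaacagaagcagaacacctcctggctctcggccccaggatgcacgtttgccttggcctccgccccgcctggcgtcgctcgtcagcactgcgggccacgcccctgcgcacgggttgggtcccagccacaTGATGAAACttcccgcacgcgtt
The element lies 194 bases before the start of Chac1, 66 and 48 bases before that of Slc7a11, and 23 bases before that of Asns. Of 42 starts found for 34 genes of the group, 10 hold it (23.8%), against 3.44% of all 32851 starts. Other motifs were also above their share of all starts in this group, among them the xenobiotic response core GCGTG (54.8% against 28.2%) and the antioxidant response element (21.4% against 10.2%). These genes were chosen for holding it, and the windows of Atf4 and Trib3 do not hold these letters.

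Chac1 (chr2:119351229-119354381), which encodes a glutathione-degrading enzyme, was at 15.9, 15.3 and 15.7 CPM with DMSO and 27.03, 25.8 and 43.05 CPM with BMS204352. The 3 controls were almost equal and every treated library was above them (1.05 ± 0.16, adjusted p = 0.00212; 0.76 ± 0.12, adjusted p = 0.000742 without replicate 3). Trib3 (chr2:152337422-152344032), a pseudokinase that restrains ATF4, was at 36.95, 38.4 and 31.1 CPM with DMSO and 70.01, 77.6 and 167 CPM with BMS204352. Replicate 3 lay far above its companions, which were both above the controls (1.58 ± 0.30, adjusted p = 0.014; 1.06 ± 0.20, adjusted p = 0.0195 without replicate 3). Atf4 itself was at 277, 273 and 246 CPM with DMSO and 325, 333 and 443 CPM with BMS204352, with no overlap (0.48 ± 0.11, adjusted p = 0.0169; 0.32 ± 0.08, adjusted p = 0.0376 without replicate 3).

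Amino acid transporters rose together with the enzymes. Slc7a11 (chr3:49892526-50443614), the cystine importer that feeds glutathione, was at 1.86, 2.96 and 3.100 CPM with DMSO and 6.45, 5.45 and 6.77 CPM with BMS204352. Replicate 3 stood beside the other 2 treated libraries here (1.24 ± 0.27, adjusted p = 0.0123; 1.17 ± 0.29, adjusted p = 0.0476 without it). Slc7a5, the leucine transporter, was at 210.0, 208 and 204 CPM with DMSO and 296, 301 and 351 CPM with BMS204352, and its partner subunit Slc3a2 was at 214, 232 and 208 CPM with DMSO and 284, 319 and 473 CPM with BMS204352. Neither overlapped between groups, and both passed with (0.62 ± 0.10, adjusted p = 0.00196 and 0.73 ± 0.15, adjusted p = 0.0153) and without replicate 3. Asns, asparagine synthetase, was at 146, 154 and 143 CPM with DMSO and 199.6, 220.0 and 303 CPM with BMS204352 (0.72 ± 0.14, adjusted p = 0.0106; 0.51 ± 0.10, adjusted p = 0.0172 without replicate 3). Aldh18a1, which starts proline synthesis, was at 116, 125 and 117 CPM with DMSO and 158, 159 and 187 CPM with BMS204352, and the mitochondrial carboxykinase gene Pck2, which makes phosphoenolpyruvate, was at 81.8, 88.3 and 79.8 CPM with DMSO and 109, 119 and 146 CPM with BMS204352. Both were higher in each treated library than in any control.

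Aminoacyl-tRNA synthetase genes were among the members that rose. Sars, the seryl enzyme, was at 280.3, 290.0 and 269 CPM with DMSO and 369.9, 379 and 474 CPM with BMS204352, with no overlap (0.56 ± 0.09, adjusted p = 0.00196). Gars, Nars, Cars and Aars also rose, by 0.30 to 0.44, and Gars and Nars kept the call without replicate 3 while Cars and Aars lost it. Gdf15, a secreted stress signal, was at 30.2, 31.2 and 27.9 CPM with DMSO and 47.3, 49.3 and 99.4 CPM with BMS204352, with replicate 3 far above the rest (1.15 ± 0.23, adjusted p = 0.0163; 0.70 ± 0.10, adjusted p = 0.000548 without replicate 3). Not all stress genes passed: Ddit3, which encodes the death-linked factor CHOP, was at 19.5, 19.7 and 14.3 CPM with DMSO and 26.4, 27.03 and 72.8 CPM with BMS204352, with treated libraries above controls but an adjusted p of 0.0624. Ddit4, Slc38a2 and Cth had overlapping groups and did not pass in either fit.

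**Figure D3:**
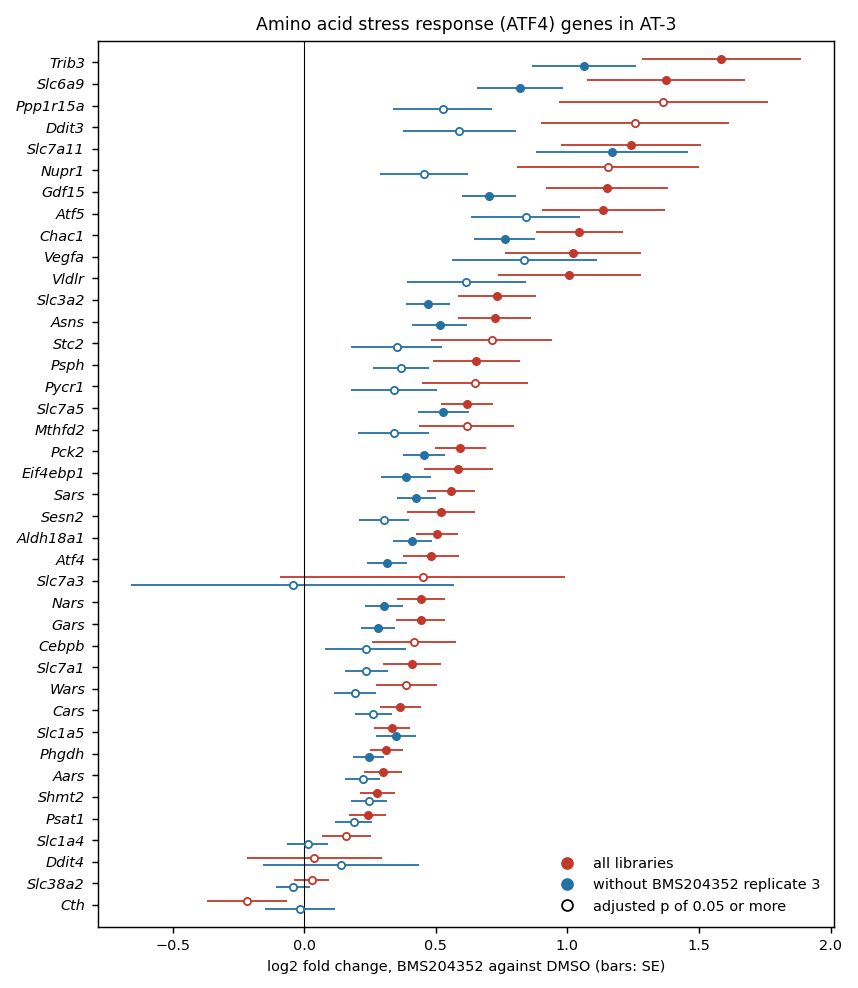
Log2 fold change with BMS204352 against DMSO (horizontal axis, bars are SE) for 40 of the 41 tested ATF4 response genes, with all libraries in red and without BMS204352 replicate 3 in blue; open points have an adjusted p of 0.05 or more, and Fgf21, near 0 counts, is not drawn. Most blue points lie right of 0 and left of their red partners.

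The unfolded protein response of the endoplasmic reticulum moved little beside this. Of 25 chaperone and folding genes tested 2 rose, Fkbp11 and Xbp1, and none fell, against 3.28% and 2% of all tested genes. The median log2 fold change of the 25 was 0.10. Fkbp11, a folding enzyme, was at 18.5, 16.4 and 16.6 CPM with DMSO and 22.3, 25.97 and 30.2 CPM with BMS204352 (0.62 ± 0.11, adjusted p = 0.00221), and it passed without replicate 3 as well, whereas Xbp1 did not. Of 21 heat shock genes 1 rose and 1 fell, against the same 3.28% and 2%, and neither passed without replicate 3.

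Among genes of the NRF2 response to oxidants, 6 of 26 rose and none fell, against 3.28% of all tested genes that rose, with a median of 0.15. Without BMS204352 replicate 3, 2 passed, Fth1 and Slc7a11, against 0.9% of all tested genes that were higher. Fth1, the ferritin heavy chain that stores iron, was at 1027, 1021 and 981 CPM with DMSO and 1234, 1354 and 1701 CPM with BMS204352. Every treated library was above every control (0.51 ± 0.09, adjusted p = 0.00203; 0.36 ± 0.06, adjusted p = 0.00152 without replicate 3). Ftl1, its light chain, was at 2004, 1983 and 1955 CPM with DMSO and 2164, 2238 and 2465 CPM with BMS204352 (0.22 ± 0.05, adjusted p = 0.0206), and Nqo1, a quinone reductase, was at 67.1, 66.3 and 70.7 CPM with DMSO and 77.9, 88.7 and 84.3 CPM with BMS204352 (0.31 ± 0.07, adjusted p = 0.021); both lost the call without replicate 3. Gclc and Gstp1, which also lost the call, and Slc7a11 made up the 6. The retinaldehyde dehydrogenase gene Aldh1a3 was at 21.2, 16.2 and 16.3 CPM with DMSO and 33.8, 36.9 and 51.9 CPM with BMS204352, higher in each treated library (1.21 ± 0.15, adjusted p = 0.000578; 0.99 ± 0.11, adjusted p = 4.63e-05 without replicate 3).

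Of the genes for channels that BMS204352 opens, Kcnma1, Kcnq1 and Kcnq3 had few or no reads in AT-3. Kcnma1 had 4, 16 and 15 counts in the BMS204352 libraries and 10, 3 and 8 in the DMSO libraries (0.71 ± 0.78, adjusted p = 0.65), and no difference was detectable at this depth. Kcnq1 and Kcnq3 had 0 to 8 counts in each of the 6 libraries and were not tested. Kcnq5, which encodes a KCNQ channel pore subunit, stood at 0.534 to 1.22 CPM per kb of exon, above Kcnma1 on that scale in each library, and was at 4.996, 4.11 and 4.45 CPM with DMSO and 6.102, 6.58 and 9.39 CPM with BMS204352. The groups did not overlap, but replicate 3 was the highest and the call (0.72 ± 0.20, adjusted p = 0.0403) was lost without it (0.49 ± 0.20, adjusted p = 0.281).

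Kcnn4 (chr7:24370263-24386690), which encodes the intermediate-conductance calcium-activated channel, stood far above them. It was at 84.4, 109.6 and 84.2 CPM with DMSO and 169.5, 202 and 325 CPM with BMS204352, or 16.5 to 63.6 CPM per kb. All treated libraries were above all controls and replicate 3 was the highest (1.34 ± 0.22, adjusted p = 0.00583; 1.005 ± 0.17, adjusted p = 0.0104 without replicate 3). Atp1b1, which encodes a beta subunit of the sodium-potassium pump, was at 312, 359 and 292 CPM with DMSO and 384, 433 and 476 CPM with BMS204352 and rose with all libraries (0.44 ± 0.10, adjusted p = 0.0182). It did not keep the call without replicate 3, although the groups did not overlap. Of 19 tested genes in this list of other potassium channels and pumps these 2 rose and none fell, with a median of 0.08, against 3.28% of all tested genes that rose.

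Of 39 tested genes of calcium entry and handling, 6 rose and none fell, against 3.28% of all tested genes that rose, with a median log2 fold change of 0.19. Without BMS204352 replicate 3 the count was 3, against 0.9% of all tested genes that were higher, and the median 0.09. Trpv6, an epithelial calcium entry channel, was at 13.7, 12.8 and 12.02 CPM with DMSO and 19.7, 20.1 and 22.2 CPM with BMS204352. The 3 treated libraries lay close together and above the controls (0.70 ± 0.10, adjusted p = 0.00103; 0.64 ± 0.11, adjusted p = 0.00276 without replicate 3). Atp2a3, a pump that returns calcium to the endoplasmic reticulum, was at 1.602, 2.099 and 1.75 CPM with DMSO and 3.73, 5.01 and 11.96 CPM with BMS204352, highest in replicate 3 (1.94 ± 0.45, adjusted p = 0.0242; 1.27 ± 0.37, adjusted p = 0.107 without it). The calcium-binding S100a6 was at 387, 349 and 369.7 CPM with DMSO and 519.9, 548 and 1032 CPM with BMS204352, and S100a4 at 10.3, 11.8 and 9.32 CPM with DMSO and 14.5, 20.2 and 42.9 CPM with BMS204352. Both passed with (0.94 ± 0.22, adjusted p = 0.0274 and 1.32 ± 0.32, adjusted p = 0.0327) and without replicate 3, in which they were highest. Nfatc2, a factor that calcineurin sends to the nucleus when calcium rises, was at 1.08, 1.19 and 1.67 CPM with DMSO and 4.43, 5.79 and 29.9 CPM with BMS204352 (3.36 ± 0.83, adjusted p = 0.0377; 1.95 ± 0.63, adjusted p = 0.19 without replicate 3, call lost).

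Matrix genes were among the 12 largest rises and the 12 largest falls. Col6a2 (chr10:76595762-76623630), a chain of collagen VI, was at 31.5, 39.8 and 29.6 CPM with DMSO and 88.7, 99.3 and 888 CPM with BMS204352, and Col6a1 (chr10:76708792-76726168), which forms the same trimer, was at 55.9, 66.2 and 44.8 CPM with DMSO and 122, 150.5 and 1043 CPM with BMS204352. Replicates 1 and 2 were above all controls, and replicate 3 was several-fold above them. The log2 fold changes, 3.44 ± 0.82, adjusted p = 0.0353 and 3.004 ± 0.73, adjusted p = 0.0372, fell to 1.49 ± 0.44, adjusted p = 0.16 and 1.297 ± 0.39, adjusted p = 0.165 without it, and neither call remained. Col18a1, the source of endostatin, was at 175, 190.2 and 162 CPM with DMSO and 291, 284 and 414 CPM with BMS204352, with a call in both fits (0.92 ± 0.12, adjusted p = 0.00103; 0.71 ± 0.08, adjusted p = 4.63e-05 without replicate 3). Lamb3, a laminin chain of the epithelial basement membrane, was at 52.03, 60.1 and 54.1 CPM with DMSO and 73.05, 73.5 and 74.3 CPM with BMS204352, where the 3 treated libraries were almost equal (0.42 ± 0.08, adjusted p = 0.00533).

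Adamts5 (chr16:85856173-85901828), an aggrecan-cleaving protease, was at 92.7, 110.1 and 118 CPM with DMSO and 46.5, 48.1 and 18.5 CPM with BMS204352. It was lower in all treated libraries and lowest in replicate 3 (−1.499 ± 0.29, adjusted p = 0.0148; −1.17 ± 0.20, adjusted p = 0.0117 without replicate 3). Col3a1, a fibrillar collagen, was at 19.8, 16.3 and 23.4 CPM with DMSO and 11.8, 8.76 and 6.65 CPM with BMS204352 (−1.12 ± 0.21, adjusted p = 0.00898; −0.94 ± 0.22, adjusted p = 0.0525 without replicate 3), and the matrix proteoglycan Prelp was at 47.2, 37.9 and 54.6 CPM with DMSO and 25.4, 18.6 and 11.8 CPM with BMS204352 (−1.32 ± 0.29, adjusted p = 0.0231; −1.08 ± 0.29, adjusted p = 0.113 without replicate 3). Neither overlapped between groups and both lost the call. Of 40 tested collagen and matrix genes 7 rose and 2 fell, against 3.28% and 2% of all tested genes, with a median of 0.29. Without BMS204352 replicate 3, 4 were higher and none lower, against 0.9% and 0.556% of all tested genes.

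Genes of adhesion and the cortical cytoskeleton gave 5 rises and 2 falls among 40 tested, against 3.28% and 2% of all tested genes. Without BMS204352 replicate 3 there was 1 of each, Itga6 and Tns3, against 0.9% and 0.556% of all tested genes. Itga6, the laminin-binding integrin subunit, was at 231, 239 and 223 CPM with DMSO and 282, 276 and 325 CPM with BMS204352 (0.36 ± 0.07, adjusted p = 0.00753; 0.28 ± 0.07, adjusted p = 0.0299 without replicate 3). Itgb3, a vitronectin receptor subunit, was at 23.1, 27.4 and 24.7 CPM with DMSO and 52.3, 50.7 and 86.2 CPM with BMS204352, higher in every treated library but called only with replicate 3 (1.35 ± 0.28, adjusted p = 0.0199; 1.04 ± 0.27, adjusted p = 0.0993 without). Tns3, which links integrins to actin, was at 114, 124 and 144 CPM with DMSO and 103, 83.2 and 84.1 CPM with BMS204352, lower in each treated library (−0.49 ± 0.08, adjusted p = 0.00203), and kept the call, whereas its relative Tns4 was at 3.96, 5.98 and 4.75 CPM with DMSO and 10.5, 13.8 and 15.2 CPM with BMS204352, higher in each (1.44 ± 0.25, adjusted p = 0.00432; 1.31 ± 0.27, adjusted p = 0.0232 without replicate 3).

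No member of the list of MRTFA and SRF targets used here was called higher. The immediate early genes that rose were counted in a list of their own, so this count does not cover them. Of 36 tested none rose and 3 fell, against 2% of all tested genes that fell, and their median log2 fold change was 0.00017; without BMS204352 replicate 3 none passed (median −0.08). The 3 were Tpm1, tropomyosin, at 2279, 1886 and 2214 CPM with DMSO and 1742, 1644 and 1496 CPM with BMS204352 (−0.38 ± 0.08, adjusted p = 0.0135), Mylk, the myosin light chain kinase, at 9.87, 11.9 and 10.7 CPM with DMSO and 7.67, 5.47 and 2.99 CPM with BMS204352 (−1.002 ± 0.26, adjusted p = 0.0358), and Lima1, an actin cross-linker, at 286, 291 and 289.8 CPM with DMSO and 270.5, 251 and 213 CPM with BMS204352 (−0.23 ± 0.06, adjusted p = 0.0383). Each was lower in all treated libraries than in all controls. Mrtfa was at 78.6, 94.01 and 86.2 CPM with DMSO and 84.2, 80.95 and 63.8 CPM with BMS204352 and Srf at 108, 87.6 and 99.6 CPM with DMSO and 96.04, 89.5 and 108 CPM with BMS204352. Both had overlapping groups and did not pass (−0.17 ± 0.10, adjusted p = 0.357 and 0.00 ± 0.15, adjusted p = 0.999).

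Cell cycle and sterol genes were lowest in replicate 3. Of 34 G1/S and replication genes 3 fell, Ccne1, Ccne2 and E2f8, and of 33 G2/M genes 2 fell, Cenpa and Kif20a, against 2% of all tested genes, and none of these passed without replicate 3. The median over the G1/S members relative to the DMSO mean was −0.04 and −0.05 in BMS204352 replicates 1 and 2 and −0.57 in replicate 3. Of 25 cholesterol synthesis and uptake genes none passed in either fit, although the median was −0.23, −0.25 and −0.91 in the 3 BMS204352 libraries and 0.12, 0.05 and −0.17 in the DMSO libraries. The fatty acid synthesis genes showed −0.11, −0.13 and −0.69, with 0 of 19 past the threshold. Of 31 lysosome and autophagy genes 6 rose, against 3.28% of all tested genes, and none fell, with Gla, at 19.1, 18.8 and 15.4 CPM with DMSO and 22.6, 26.1 and 30.2 CPM with BMS204352, the 1 that passed in both fits (0.58 ± 0.11, adjusted p = 0.00432). No member of ribosome biogenesis passed among 30, and 2 of 37 respiratory subunits rose, a share near the 3.28% of all tested genes, with neither passing without replicate 3.

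**Figure D4:**
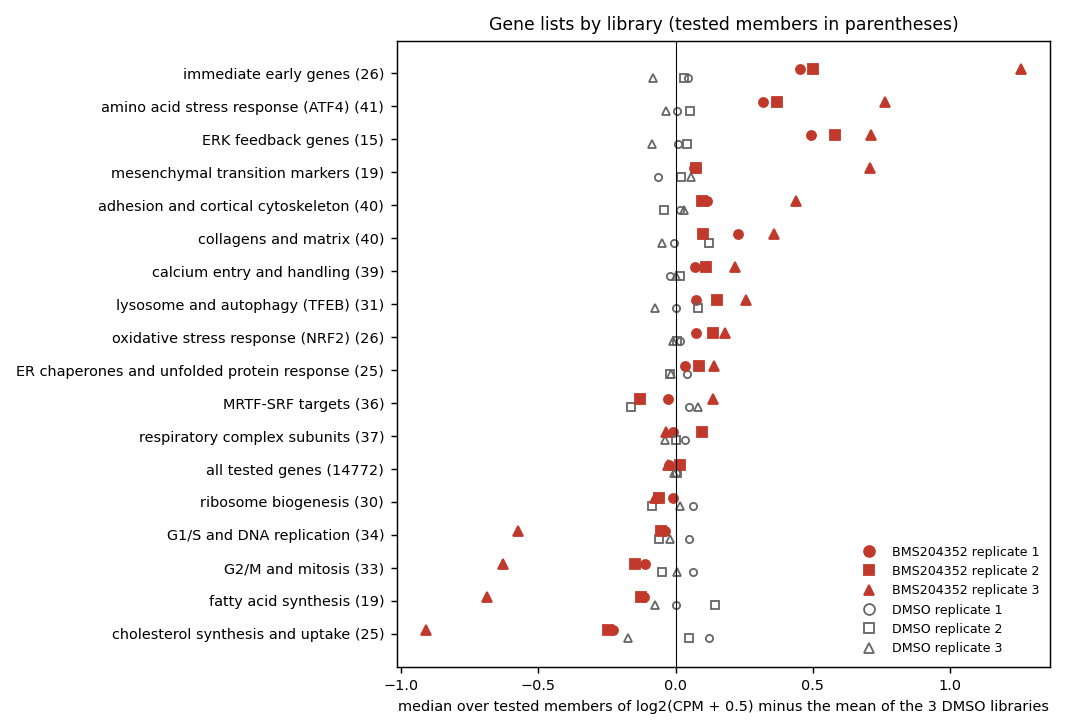
Median over the tested members of 18 gene groups (vertical axis, number tested in parentheses) of log2(CPM + 0.5) minus the mean of the 3 DMSO libraries (horizontal axis), with BMS204352 libraries filled and DMSO libraries open. Immediate early, ATF4 and ERK genes are right of 0 in all 3 BMS204352 libraries, while cell cycle and fatty acid genes are far left of 0 in replicate 3 and near 0 in the others.

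The remaining large rises with all libraries were of Ptgs2, Plet1, Lgals3, Dsg3 and Edil3. Ptgs2, the inducible cyclooxygenase of prostaglandin synthesis, was at 57.2, 53.4 and 51.3 CPM with DMSO and 113, 119 and 603 CPM with BMS204352. Replicates 1 and 2 lay above all controls, and replicate 3 far above them (2.39 ± 0.59, adjusted p = 0.0381; 1.11 ± 0.33, adjusted p = 0.16 without replicate 3). Lgals3, galectin-3, was at 163, 167 and 151 CPM with DMSO and 298, 359 and 1301 CPM with BMS204352 (2.05 ± 0.47, adjusted p = 0.029; 1.04 ± 0.24, adjusted p = 0.0611 without replicate 3), and the surface protein gene Plet1 was at 4.03, 4.197 and 2.701 CPM with DMSO and 6.62, 11.8 and 36.3 CPM with BMS204352 (2.35 ± 0.56, adjusted p = 0.0336). The desmosomal cadherin Dsg3 and the integrin ligand Edil3 had the same shape, with log2 fold changes of 1.97 and 1.87. Of the 12 largest rises only Areg kept its call without BMS204352 replicate 3, and none did when any of the DMSO replicates was left out. Igfbp4, which binds insulin-like growth factors, was among the largest rises without replicate 3, at 4.71, 6.68 and 6.85 CPM with DMSO and 11.7, 14.6 and 22.1 CPM with BMS204352 (1.42 ± 0.27, adjusted p = 0.00942; 1.11 ± 0.26, adjusted p = 0.0367 without it). Aspa, an aspartoacylase gene named after its values were seen, was at 40.2, 35.9 and 36.6 CPM with DMSO and 59.9, 64.03 and 71.9 CPM with BMS204352 (0.81 ± 0.09, adjusted p = 0.000249).

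Of the 12 largest falls, 5 kept their call without BMS204352 replicate 3. Rasgrp1, an activator of Ras that binds diacylglycerol and calcium, was at 12.6, 11.04 and 13.3 CPM with DMSO and 6.04, 6.19 and 3.12 CPM with BMS204352. Its groups were well apart (−1.26 ± 0.18, adjusted p = 0.000979; −1.01 ± 0.15, adjusted p = 0.000563 without replicate 3). Gfra2, a receptor for neurturin, was at 35.6, 32.6 and 51.7 CPM with DMSO and 19.5, 17.04 and 9.53 CPM with BMS204352 (−1.38 ± 0.24, adjusted p = 0.00645), and the guidance ligand Sema3d was at 7.19, 7.39 and 8.84 CPM with DMSO and 3.91, 3.53 and 2.08 CPM with BMS204352 (−1.29 ± 0.22, adjusted p = 0.00249). Mn1, a transcriptional coregulator, was at 7.16, 10.7 and 11.98 CPM with DMSO and 4.78, 5.58 and 3.16 CPM with BMS204352 (−1.14 ± 0.22, adjusted p = 0.00574), and with Adamts5 these are the 5. Foxd1, a forkhead factor, was at 32.7, 34.1 and 37.8 CPM with DMSO and 19.2, 17.6 and 13.8 CPM with BMS204352 (−1.04 ± 0.15, adjusted p = 0.00166), and Dhrs3, a retinaldehyde reductase, was at 9.71, 8.35 and 10.1 CPM with DMSO and 4.65, 4.58 and 5.23 CPM with BMS204352, with the treated libraries almost equal (−0.95 ± 0.13, adjusted p = 0.000588; −1.02 ± 0.15, adjusted p = 0.000548 without replicate 3). Fam43a was at 41.3, 40.1 and 48.4 CPM with DMSO and 25.1, 23.6 and 24.7 CPM with BMS204352, again with 3 nearly equal treated libraries (−0.81 ± 0.10, adjusted p = 0.000249; −0.83 ± 0.11, adjusted p = 0.000384 without replicate 3).

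The other large falls lost their call without replicate 3. The ETS factor gene Erg was at 11.2, 10.2 and 9.13 CPM with DMSO and 4.75, 3.35 and 0.914 CPM with BMS204352, lowest in replicate 3 (−1.75 ± 0.42, adjusted p = 0.0331; −1.32 ± 0.31, adjusted p = 0.053 without it). Chodl, Npr3, Nrep and Arrdc4, which encode a C-type lectin, the natriuretic peptide clearance receptor, a neuronal regeneration protein and an arrestin-domain protein, fell by 1.35, 1.18, 1.17 and 1.12. Npas3, a neuronal transcription factor gene, was at 7.07, 4.996 and 5.78 CPM with DMSO and 3.63, 2.48 and 4.32 CPM with BMS204352, and passed both with (−0.76 ± 0.20, adjusted p = 0.031) and without replicate 3 (−0.95 ± 0.21, adjusted p = 0.0179).

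Some genes stood far apart in replicate 3 from both companions. Ccn3, a matricellular gene, was at 1.98, 1.69 and 1.86 CPM with DMSO and 6.04, 6.32 and 57.5 CPM with BMS204352, with an adjusted p of 0.0529, and the cytokine gene Clcf1 was at 7.61, 7.69 and 6.71 CPM with DMSO and 11.6, 13.6 and 79.5 CPM with BMS204352. Hbegf, a heparin-binding EGF receptor ligand, was at 6.93, 6.34 and 7.42 CPM with DMSO and 11.4, 10.6 and 56.9 CPM with BMS204352, and the water channel gene Aqp1 at 5.94, 3.33 and 4.68 CPM with DMSO and 4.73, 5.51 and 27.8 CPM with BMS204352. None of the 4 passed in either fit. In the other direction Sostdc1, a secreted antagonist of BMP and Wnt, was at 15.6, 14.9 and 17.4 CPM with DMSO and 11.9, 10.2 and 1.495 CPM with BMS204352, and Hlf, a PAR bZIP factor, was at 42.4, 41.5 and 38.2 CPM with DMSO and 24.2, 20.6 and 5.15 CPM with BMS204352. Krt42 was at 209, 171 and 166 CPM with DMSO and 278, 296 and 94.2 CPM with BMS204352: replicates 1 and 2 were above all controls and replicate 3 below all of them. Its log2 fold change was 0.30 ± 0.29, adjusted p = 0.608 with all libraries and 0.66 ± 0.09, adjusted p = 0.000264 without replicate 3, a rise that passed without that library and not with it.

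Markers of other cell types were summed in each library. Fibroblast markers summed to 45.8 to 61.0 CPM with DMSO and 37.2 to 56.5 CPM with BMS204352, and Dcn, Lum, Thy1, Pi16, Dpt and Fap were under 1 CPM throughout. Leukocyte markers summed to 42.6 to 48.5 CPM with DMSO and 55.5, 57.2 and 80.8 CPM with BMS204352, while Ptprc, Adgre1, Cd3e and Tyrobp were at 0 in all 6 libraries; the sum came from Cd14 and Cd68, which both rose. Endothelial markers summed to 1.75 to 2.05 CPM and 2.95 to 6.23 CPM, with Pecam1 called higher and Emcn at 0. Epithelial markers summed to 3369 to 3546 CPM and 3847 to 4395 CPM, with 3 of 20 tested members higher (Rab25, Krt14 and Epcam) and Esrp2 lower. Krt14 gave the largest part of that sum. Mesenchymal transition markers summed to 6077 to 7990 CPM with DMSO and 7143 to 13340 CPM with BMS204352. Most of that sum came from Fn1 and Vim, and neither was called. Fn1 was at 3366, 5329 and 4114 CPM with DMSO and 6249, 4423 and 9169 CPM with BMS204352, with overlapping groups. Of 19 such markers 3 rose (Snai1, S100a4 and Tgfb1) and 2 fell (Tgfbr2 and Cdh2). Over all tested genes, 3.28% rose and 2% fell. Of the marker genes called here, S100a4 and Tgfbr2 kept the call without BMS204352 replicate 3, and the other calls (Cd14, Cd68, Pecam1, Rab25, Krt14, Epcam, Esrp2, Snai1, Tgfb1 and Cdh2) were lost. In bulk RNA, fewer cells of a kind and less RNA per cell cannot be told apart. The part of these shifts in the results above was not tested.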

How the data were processed

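Per the labels' protocols, the Qiagen RNeasy kit gave the RNA and NuGen Universal Plus mRNA the libraries. The authors deposited whole-number read counts per gene, aligned with STAR to GRCm38 and counted with featureCounts, per the submitters' processing notes; the sources used here give no versions, strand or handling of mates. Of AT-3 counts from 1 to 10, 85.7% were even, as when both mates of a pair are counted, so all tests were also run on halved counts. The table held 32287 IDs; 2 of human form were left out. Symbols and positions came from GENCODE vM21 (GRCm38).

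Tests were run in R 4.3.3 (edgeR 4.0.16, DESeq2 1.42.0, limma 3.58.1). The filter was filterByExpr (minimum count 10, minimum total 15), counts were scaled by the trimmed mean of M-values, and edgeR's robust quasi-likelihood test was fitted to all 18 AT-3 libraries (totals 38.5 to 52.6 M), or to 17 without BMS204352 replicate 3. The common dispersion was 0.0136 and 0.00912. P-values were adjusted by Benjamini-Hochberg over all tested genes. SE is the size of the log2 fold change divided by the square root of F. Group lists (41) were counted, not tested. Promoters came from RefSeq, without chromosome 18. Code was checked on simulated counts.

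The members of the comparison and the gene lists were chosen with earlier results of these data known. Genes were named by a rule: channel and MRTFA-SRF genes; the 12 largest rises and falls with all libraries and the 8 largest without replicate 3, among called genes whose groups did not overlap and whose mean log2 CPM reached 2; the 8 genes with the largest gaps of replicate 3 either way; and the 4 smallest p of lists with at least 3 calls. Other list members, and genes that passed in each fit, were named after their values were seen. Fewer are named where space was short, and some channel and pump genes are not reported here. Alternatives were DESeq2 or its size factors, limma voom with sample quality weights, 1 CPM in 3 libraries, no filter, a replicate block, only the libraries compared, halved counts, and leaving out each library.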

Additional observations from a re-analysis of the deposited data

How the results depend on the processing

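Among the settings tried, no called gene followed through them changed sign; Srf, whose log2 fold change was near 0 with all libraries, was at −0.08 without BMS204352 replicate 3. With all libraries, the 779 calls became 1375 with DESeq2, 10 with only the libraries compared and 449 without both BMS204352 replicate 3 and KCl+BMS204352 replicate 3; limma voom with quality weights (591), no filter (666), DESeq2 size factors (758), halved counts (833) and a filter of 1 CPM (823) stayed within 1.5 times. Leaving out 1 library gave 146 (DMSO replicate 3) to 1743 (BMS204352 replicate 1). Without BMS204352 replicate 3, the 220 calls became 445 with DESeq2, 384 with limma voom, 695 with no filter and 358 with only the libraries compared. Leaving out a further library gave 130, 186 and 87 (DMSO replicates 1, 2 and 3) and 120 and 23 (BMS204352 replicates 1 and 2). Where this left 1 BMS204352 library, that library is assumed to vary like the other groups. The cause of these shifts was not tested, except that fewer libraries give fewer degrees of freedom by construction.

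Replicate numbers are shared across groups, but same-numbered BMS204352 and DMSO libraries did not deviate together (r of −0.05, 0.02 and 0.02), so the numbers were not taken to pair libraries. With the replicate block the calls were 1455 with all libraries and 588 without BMS204352 replicate 3. The hint from these correlations was weak, since BMS204352 replicate 1 correlated best with DMSO replicate 3 and BMS204352 replicate 2 with DMSO replicate 1. They covered only the BMS204352 and DMSO libraries, so they cannot show whether replicate numbers go together in the other AT-3 groups. The cause of the larger counts with the block was not tested.

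Kcnma1, Kcnq1 and Kcnq3 had at most 16 counts in a library, and differences in them were not detectable.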

Other observations

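Among the 121 genes that passed in each fit leaving out 1 library, several kinase, ligand and receptor genes not described in full above were named after their values were seen. Sgk1, the serum- and glucocorticoid-regulated kinase that acts on ion transporters, was at 113, 118 and 118 CPM with DMSO and 166, 189.5 and 254 CPM with BMS204352. Every treated library was above every control (0.82 ± 0.11, adjusted p = 0.000941). Lcn2, the siderophore-binding lipocalin, was at 38.6, 35.1 and 33.1 CPM with DMSO and 52.1, 65.6 and 84.3 CPM with BMS204352 (0.93 ± 0.16, adjusted p = 0.00533), and Jag1, a Notch ligand, was at 19.6, 19.5 and 21.1 CPM with DMSO and 27.2, 27.3 and 39.3 CPM with BMS204352 (0.65 ± 0.12, adjusted p = 0.00533). Nrg1, a ligand of ERBB receptors, was at 15.03, 17.1 and 13.96 CPM with DMSO and 24.5, 24.7 and 40.2 CPM with BMS204352 (0.97 ± 0.16, adjusted p = 0.00259).

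Other genes of this core were lower. Irs1, the insulin receptor substrate, was at 50.2, 61.9 and 67.00 CPM with DMSO and 35.96, 32.7 and 19.1 CPM with BMS204352, lower in each treated library (−1.02 ± 0.18, adjusted p = 0.00583). Tgm2, a protein cross-linking transglutaminase, was at 151, 132 and 162 CPM with DMSO and 87.2, 74.7 and 44.5 CPM with BMS204352 (−1.099 ± 0.18, adjusted p = 0.00574), and Fgfr2, a fibroblast growth factor receptor, was at 23.99, 22.5 and 24.2 CPM with DMSO and 15.7, 13.9 and 16.03 CPM with BMS204352 (−0.62 ± 0.10, adjusted p = 0.00213). Tgfbr2, the type II receptor of TGF-beta, was at 187, 183 and 219.9 CPM with DMSO and 143, 141 and 112 CPM with BMS204352 (−0.57 ± 0.10, adjusted p = 0.00533), and the ligand gene Wnt5a was at 50.3, 47.6 and 57.8 CPM with DMSO and 35.9, 34.3 and 33.3 CPM with BMS204352 (−0.58 ± 0.09, adjusted p = 0.00187). None of these groups overlapped. Exons of Irs1 (30.9%) and Tgm2 (21.8%) overlap those of other annotated genes, so the counts of these 2 genes are less certain.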
